A study of Mus musculus with 32 samples.

Results

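The genes described here are 2 neurotrophin ligands (*Bdnf* and *Ntf3*), the receptors that neurotrophins act on (*Ntrk2*, *Ntrk3* and *Ngfr*) and 3 receptor genes for ligands of the GDNF family (*Gfra1*, *Gfra2* and *Ret*). They were chosen by name, 8 of the 23420 genes in the count tables. RNA was sequenced from striatal tissue of 8 Line 4a mice and 8 B6 mice of about 50 days of age. Line 4a is a B6.D2 congenic line, heterozygous for a DBA/2J (D2) segment of chromosome 11 on a C57BL/6J (B6) background, and the B6 mice were wild-type littermates. All 16 mice were naïve, with no drug given, and the 3 mm punches from both hemispheres of a mouse were pooled. RNA was sequenced in 1 of the study's congenic lines, and its segment holds many genes. A difference in RNA between the genotypes therefore cannot be assigned to any 1 of those genes.

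Neurotrophins are secreted growth factors that keep neurons alive and adjust their synapses. BDNF acts mainly through TrkB, the product of *Ntrk2*, and NT-3, the product of *Ntf3*, mainly through TrkC, the product of *Ntrk3*. p75NTR, the product of *Ngfr*, binds all neurotrophins and also their uncleaved precursors. GDNF and neurturin bind the membrane-anchored co-receptors encoded by *Gfra1* and *Gfra2*, and the complex then signals through the kinase Ret. Striatal projection neurons make little BDNF themselves. Most of the BDNF protein of the striatum is made by cortical neurons and carried there along their axons.

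*Bdnf* was the member that stood furthest apart between the genotypes. Every Line 4a mouse had a lower *Bdnf* level than every B6 mouse, and the mean was 1.63-fold lower. *Gfra2* was 1.39-fold lower, and none of the 8 Line 4a mice reached the B6 median. Neither passed a false discovery rate (FDR) of 5% across all genes in edgeR's quasi-likelihood test. *Ntrk2* and *Ntrk3* were nearly level between the genotypes, while *Ngfr* and *Ret* varied widely from mouse to mouse and together. Markers of cortical glutamatergic neurons were also lower in Line 4a, and they are given below beside the genes that moved with them.

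Levels are in CPM, the reads of a gene scaled to a library of 1000000 reads on genes in that mouse after TMM scaling, a correction for differences in library composition. Between 19032826 and 33748353 reads fell on genes in the B6 mice, with a median of 30222554. The Line 4a mice ranged from 24912413 to 32085311, with a median of 29352253. In B6 mouse 8 and Line 4a mouse 1, 11.3% and 10.2% of all entries of the counting fell outside annotated exons. In the other 14 mice it was 14.5% to 15.9%, so these 2 libraries stand apart. Values without these 2 libraries are given beside the members whose fold change moved. Home cage and sex are not in the labels and did not enter the fits, and the paper gives mice of both sexes in each genotype. Genes of striatal projection neurons summed to 6227 to 9174 CPM in B6 mice and 6790 to 7868 CPM in Line 4a mice, so the labelled tissue was present in all 16, and 0 of the 11 tested had an unadjusted p under 0.05.

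Of the 8 members, 7 had enough reads for the test across 15589 genes, and *Ntf3* did not. No member passed an FDR of 5% or 20%, thresholds that 0.00641% and 0.0192% of all genes passed. The study's edgeR model, which also held home cage, called more genes at an FDR of 5% and reported *Bdnf* as lower in Line 4a. At an unadjusted p under 0.05, 2 of the 7 were lower in Line 4a, against 5.14% of all genes, and 0 were higher, against 4.86%. For 1 of the 7, *Bdnf*, every Line 4a mouse lay below every B6 mouse, which was so for 0.0257% of all genes. The median log2 fold change (Line 4a minus B6) was -0.07 over the 7 members and 0.01 over all genes, and 4 of the 7 values were negative. Other tests on the same counts called more genes. DESeq2 called 2 of the 7 at an FDR of 5%, *Bdnf* and *Gfra2*, against 0.199% of all genes, and edgeR's likelihood ratio test called 1, *Bdnf*, against 0.128%. In the mice of lanes 7 and 8 alone 4 of the 7 members had an unadjusted p under 0.05 (*Bdnf* and *Gfra2* lower, *Ngfr* and *Ret* higher), against 9.01% of all genes, but 0 genes passed an FDR of 5%. Treating the lane files of a mouse as if they were separate mice also called these 2, against 7.2% of all genes.

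**Figure D1:**
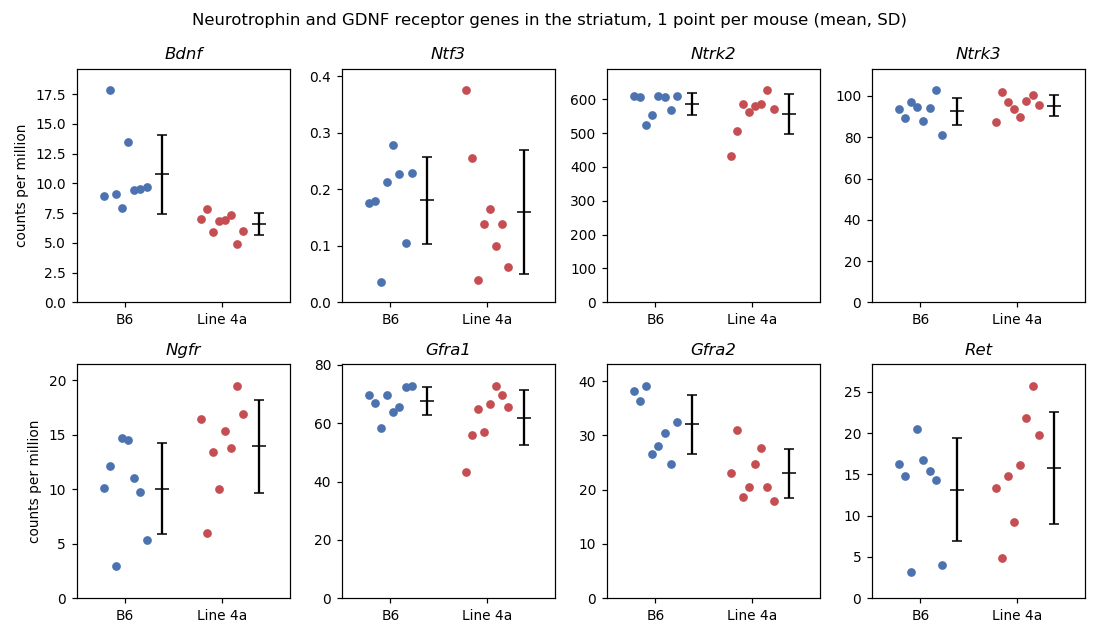
Level of each member in CPM (vertical axes, from 0), with 1 point per mouse for 8 B6 and 8 Line 4a mice and the mean with SD beside them. The Line 4a points of Bdnf, from 4.92 to 7.81, all lie below the lowest B6 point, 7.92.

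*Bdnf* lies on chromosome 2 (chr2:109674700-109727043, GRCm38, plus strand) and has several alternative first exons, each with its own start site, spliced to a shared coding exon. The counts merge all of them, so they do not show which start site was used. The RefSeq table of start sites holds 7 windows for *Bdnf*, each covering 250 bases before and 50 after a start. The 6-letter core of the cAMP response element, the site for CREB, reads TGACGT or, on the other strand, ACGTCA. It is in 1 of these 7 windows, and in 7.51% of 32851 windows over all genes. The 100 bases before the first start site and before the start whose window holds the core are shown to place the core beside a start without it. The first stretch lies upstream of the transcripts and is not itself counted. The second lies inside the gene, downstream of the first start, and precedes only transcripts that begin at its own start or later. Whether it overlaps an exon of another transcript was not checked. Both run 5′ to 3′ on the plus strand of GRCm38.p6, the capitals mark the core, and the core begins 36 bases before its start site.
Bdnf first start, chr2:109674600-109674699: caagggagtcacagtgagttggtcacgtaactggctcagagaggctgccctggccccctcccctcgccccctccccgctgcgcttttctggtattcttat
Bdnf start with the core, chr2:109692336-109692435: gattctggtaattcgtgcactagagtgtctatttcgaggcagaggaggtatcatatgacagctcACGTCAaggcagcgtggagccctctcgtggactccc
None of the windows of *Ntf3* (2), *Ntrk2* (1), *Ngfr* (1) and *Gfra1* (1) holds the core, and *Ntrk3*, *Gfra2* and *Ret* were not matched to a window. A match shows only that the letters are there.

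In B6 mice *Bdnf* was counted 181 to 595 times, a level of 7.92 CPM at the lowest, 9.48 at the median and 17.9 at the highest. In Line 4a mice it was counted 141 to 223 times, from 4.92 to 7.81 CPM with a median of 6.91. The groups did not overlap, and B6 mice 2 and 5, at 17.9 and 13.5 CPM, were well above the other B6 mice. The means were 10.7 ± 3.31 CPM in B6 and 6.59 ± 0.927 CPM in Line 4a (SD, n = 8 each). The log2 fold change was -0.71 (SE 0.15, 95% confidence interval -1.02 to -0.39), with an unadjusted p of 1.61e-04 and an FDR of 0.292 in edgeR's quasi-likelihood test. It ranked 7 among all genes by p. An exact two-sided permutation test of the 16 mice gave p = 1.55e-04, the smallest that its 12870 splits allow. The difference was of like size in the mice sequenced on lanes 5 and 6 (-0.67) and on lanes 7 and 8 (-0.75), and the difference between these had a p of 0.809. Leaving out each mouse in turn gave -0.76 to -0.56, the smallest size being without B6 mouse 2, and the value without the 2 libraries that stand apart was -0.75.

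Because *Bdnf* transcripts are abundant in cortical neurons, the level was set beside cortical markers in the same mice. Of 13 markers of cortical glutamatergic neurons, 10 were lower in Line 4a and 0 higher at an unadjusted p under 0.05. The shares of all genes were 5.14% lower and 4.86% higher. All 13 markers had a negative log2 fold change, and their median was -0.56. Among them were *Slc17a7*, the vesicular glutamate transporter of cortical neurons (415 and 268 CPM in B6 and Line 4a, log2 fold change -0.63, SE 0.17), and the transcription factor *Tbr1* (46.5 and 32.6 CPM, -0.52, SE 0.15). Their summed level was 578 to 939 CPM in B6 mice (median 816) and 407 to 823 CPM in Line 4a mice (median 582), and no marker was at 0. Without the 2 libraries that stand apart, 11 of the 13 were lower, and the share of all genes in that fit was not worked out. Of 4 markers of the claustrum and lateral cortex, 3 were lower. A lower share of cortical cells in a punch and less RNA per cell cannot be told apart in bulk tissue.

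The mean standardized level of the 13 markers, the cortical score, was then entered in the fit as a covariate. The *Bdnf* log2 fold change was -0.40 (SE 0.17), with an unadjusted p of 0.0275 and an FDR of 0.886. In that fit 2 of the 7 members, *Bdnf* and *Gfra1*, were lower at an unadjusted p under 0.05, against 1.1% of all genes. With the lane pair in the fit as well *Bdnf* was at -0.36 (SE 0.18, p = 0.0616), and 1 of the 7 members, *Gfra1*, had an unadjusted p under 0.05, against 1.64% of all genes. *Bdnf* thus kept its direction beside the score at a smaller size, and the part that cortical tissue has in the difference was not tested. After subtracting the genotype means, *Bdnf* and the score had a Pearson r of 0.59 and a Spearman rho of 0.54 over the 16 mice (permutation p = 0.0101 and 0.0355). Over the 84 relations between members and marker lists the adjusted values were 0.0848 and 0.199, neither under 0.05.

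*Gfra2*, the co-receptor that prefers neurturin, lies on chromosome 14 (chr14:70890107-70979840). Its level in B6 mice ran from 24.8 to 39.2 CPM with a median of 31.5, and in Line 4a mice from 18.0 to 30.9 CPM with a median of 21.8. The groups overlapped: 6 Line 4a mice lay below the lowest B6 mouse, and Line 4a mouse 2, at 30.9 CPM, lay within the B6 range. The means were 32.03 ± 5.45 and 23.0 ± 4.54 CPM (SD, n = 8 each). The log2 fold change was -0.48 (SE 0.12, 95% confidence interval -0.73 to -0.23), with an unadjusted p of 7.95e-04 and an FDR of 0.331 in the quasi-likelihood test, and the exact permutation p was 0.00357. It was -0.59 in the mice of lanes 5 and 6 and -0.36 in those of lanes 7 and 8. DESeq2 placed it at an FDR of 0.04997, just under the threshold, and the likelihood ratio test at 0.0656.

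The level of *Gfra2* followed the cortical score closely. Line 4a mouse 2, the highest of its group for *Gfra2*, also had the highest score of its group. After subtracting the genotype means r was 0.87 and rho 0.88 over the 16 mice, with permutation p of 3e-05 and 2e-05 and adjusted values of 0.00252 and 0.00168. Without the 2 mice farthest from the median r was 0.80, and within the lane pairs it was 0.96 and 0.86 (n = 8 each). With the score as a covariate the genotype difference was -0.13 (SE 0.09, p = 0.142). The gene most like *Gfra2* across the 16 mice was *Medag* (r = 0.92), and *Ncald* (0.91) was also among the 3 most like it. *Bdnf* and *Gfra2*, both lower in Line 4a, had an r of only 0.38 with each other (permutation p = 0.152, adjusted 0.441).

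**Figure D2:**
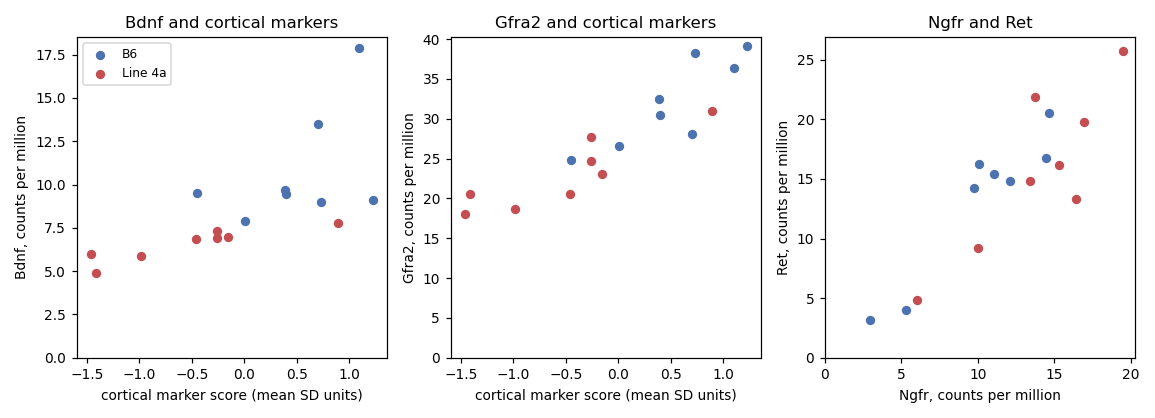
Level of Bdnf and of Gfra2 in CPM against the cortical score (mean of 13 standardized log2 levels), and of Ret against Ngfr, with 1 point per mouse. Gfra2 is higher where the score is higher in both genotypes, the Line 4a points of Bdnf lie below the B6 points along the score, and the 3 lowest Ngfr mice are the 3 lowest Ret mice.

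*Ntf3* lies on chromosome 6 (chr6:126101412-126166772) and was close to absent. It was counted 1 to 7 times in each B6 mouse and 1 to 12 times in each Line 4a mouse, 0.0353 to 0.278 CPM and 0.0401 to 0.376 CPM. At this depth a genotype difference was not detectable: without the filter on low counts the log2 fold change was -0.17 with an unadjusted p of 0.656, and the exact permutation p was 0.553.

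*Ntrk2*, on chromosome 13 (chr13:58806472-59133970), was the most abundant member. B6 mice had 523 to 610 CPM with a median of 606, and Line 4a mice 432 to 628 CPM with a median of 575. The groups overlapped, and the lowest value belonged to Line 4a mouse 1, whose library stands apart. The means were 586 ± 33.2 and 556 ± 60.5 CPM (SD, n = 8 each), and the log2 fold change was -0.07 (SE 0.06) with an FDR of 0.699 in the quasi-likelihood test. The 95% confidence interval of -0.21 to 0.06 covers no change, and the value without the 2 libraries was -0.02. TrkB has a full-length kinase form and truncated forms without the kinase, which astrocytes make in quantity, and counts per gene do not separate them.

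*Ntrk3*, on chromosome 7 (chr7:78179986-78581034), varied little between mice. It measured 92.6 ± 6.52 CPM in B6 and 95.4 ± 4.99 CPM in Line 4a mice (SD, n = 8 each), with all mice between 81.2 and 103 CPM. The log2 fold change was 0.04 (SE 0.05, 95% confidence interval -0.06 to 0.14), with an FDR of 0.777. For both Trk receptors the interval excludes a change of the size measured for *Bdnf*.

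*Ngfr* lies on chromosome 11 (chr11:95568818-95587698), the chromosome that carries the D2 segment, but beyond its distal end as the study's markers define it. Its level ran from 2.93 to 14.7 CPM in B6 mice (median 10.6) and from 6.02 to 19.5 CPM in Line 4a mice (median 14.5). The groups overlapped, with 4 Line 4a mice above the highest B6 mouse. The means were 10.1 ± 4.14 and 13.9 ± 4.25 CPM (SD, n = 8 each). The log2 fold change was 0.47 (SE 0.27, 95% confidence interval -0.09 to 1.03), with an FDR of 0.564 in the quasi-likelihood test and an exact permutation p of 0.133. It was 0.20 in the mice of lanes 5 and 6 and 0.69 in those of lanes 7 and 8, and -0.03 with the cortical score as a covariate, so the data give no direction for *Ngfr*. Without the 2 libraries that stand apart it was 0.33.

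*Gfra1*, the co-receptor that prefers GDNF, lies on chromosome 19 (chr19:58235581-58455946). It measured 67.5 ± 4.82 CPM in B6 and 61.9 ± 9.49 CPM in Line 4a mice (SD, n = 8 each). The lowest value, 43.2 CPM, was again that of Line 4a mouse 1, and the next lowest Line 4a mouse had 55.9 CPM. The log2 fold change was -0.12 (SE 0.08, 95% confidence interval -0.30 to 0.05), with an FDR of 0.621, and -0.05 without the 2 libraries that stand apart. It was -0.26 in the mice of lanes 5 and 6 and -0.01 in those of lanes 7 and 8. With the cortical score as a covariate it was -0.26 (p = 0.0179, FDR 0.886), in a fit that holds Line 4a mouse 1. This went the other way from *Gfra2*, whose difference shrank beside the score. Its exons overlap those of *Gm16277* on the opposite strand over 416 bases in mm9, and reads were counted without strand, so reads of the pair there cannot be told apart.

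*Ret*, on chromosome 6 (chr6:118151748-118197744), was the most variable member tested. B6 mice had 3.18 to 20.5 CPM with a median of 15.1, and Line 4a mice 4.85 to 25.8 CPM with a median of 15.5. The groups overlapped almost fully. The means were 13.2 ± 6.21 and 15.7 ± 6.79 CPM (SD, n = 8 each), and the log2 fold change was 0.26 (SE 0.35, 95% confidence interval -0.47 to 0.99) with an FDR of 0.819 in the quasi-likelihood test. The sign differed between lane pairs, -0.38 for lanes 5 and 6 and 0.74 for lanes 7 and 8, and the difference between these, 1.12 (SE 0.65), had a p of 0.106. With the cortical score as a covariate it was -0.47, so no direction can be given for *Ret* either. Without the 2 libraries that stand apart it was 0.15.

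**Figure D3:**
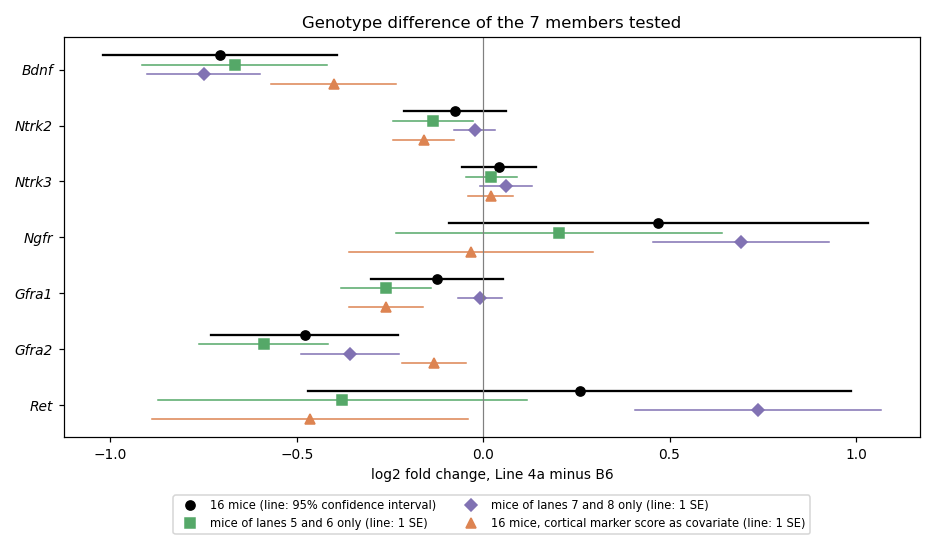
Log2 fold change (Line 4a minus B6, horizontal axis) of the 7 members tested, for all 16 mice with the 95% confidence interval, and with 1 SE for each lane pair and for the fit with the cortical score. Bdnf is below 0 in all 4 fits, from -0.75 to -0.40, while Ret lies on both sides, from -0.47 to 0.74.

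The mice with little *Ngfr* were the mice with little *Ret*. B6 mouse 3 (2.93 and 3.18 CPM), B6 mouse 8 (5.30 and 3.99 CPM) and Line 4a mouse 2 (6.02 and 4.85 CPM) were the 3 lowest for both genes, and in the other 13 mice *Ngfr* was at least 9.76 CPM and *Ret* at least 9.19 CPM. After subtracting the genotype means, *Ngfr* and *Ret* had an r of 0.95 and a rho of 0.79 over the 16 mice. The permutation p were 2e-05 and 6.4e-04, and the values adjusted over the 21 pairs of members were 4.2e-04 and 0.0134. The relation held without the 2 mice farthest from the median (r = 0.89), without the 3 low mice, a choice made after seeing the values (0.73), and within each lane pair (0.98 and 0.91, n = 8 each). The genes most like *Ngfr* were *Slc6a11*, a GABA transporter (r = 0.95), *Slc29a4*, a monoamine transporter (0.95), and *Ret* itself. Those most like *Ret* were *Agt*, angiotensinogen (0.97), *Limk1* (0.97) and *Esrrg* (0.97), out of 14206 genes searched.

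*Ngfr* and *Ret* also moved with the list of neuropeptides of the hypothalamus and ventral forebrain, regions that lie below and beside the striatum. Of its 6 genes only *Trh*, *Avp* and *Gal* had enough reads, and they averaged 6.52, 0.339 and 0.722 CPM, the last 2 being low. *Pmch* and *Hcrt*, which mark the lateral hypothalamus, averaged 0.0528 and 0.0494 CPM. The summed level of the list was 4.06 to 11.8 CPM in B6 mice and 4.27 to 10.4 CPM in Line 4a mice. None of the 3 genes with enough reads differed between the genotypes at an unadjusted p under 0.05. With this list r was 0.82 for *Ngfr* and 0.79 for *Ret*, with rho of 0.76 and 0.74 and adjusted permutation p of 0.00756 for both r. Without the 2 farthest mice r was 0.61 and 0.56. Without the 3 mice lowest in both genes, a choice made after seeing the values, it was 0.51 and 0.47 (n = 13). Within the lane pairs r was 0.85 and 0.76 for *Ngfr* and 0.86 and 0.61 for *Ret* (n = 8 each). *Ngfr* and *Ret* with this list and *Gfra2* with the cortical score were the 3 of the 84 relations with an adjusted p under 0.05 for r. By rho 2 more passed. *Ret* ran against the striatal projection neuron list (rho -0.72, adjusted p = 0.0323, r -0.71, adjusted p = 0.0512), and *Ntrk2* ran with the astrocyte list (rho 0.73, adjusted p = 0.0323, r 0.58, adjusted p = 0.174). The part of the dissection in them was not tested.

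*Ntrk2* and *Gfra1* had an r of 0.85 and a rho of 0.73 (permutation p = 0.00133 and 0.00527, adjusted 0.0140 and 0.0553). Without B6 mouse 3 and Line 4a mouse 1, and with the genotype means taken anew, r was 0.52 over the other 14 mice and no longer passed (permutation p = 0.110). It was 0.91 in the mice of lanes 5 and 6 and 0.57 in the 6 of them left without these 2, and -0.09 in the mice of lanes 7 and 8. The other 19 pairs of members did not pass. The genes most like the remaining members were *Ptgs2* (r = 0.85), *Mas1* (0.82) and *3110047P20Rik* (0.81) for *Bdnf*, *Stk24* (0.93), *Prkar2a* (0.93) and *Ankfy1* (0.91) for *Ntrk2*, *Ccdc66* (0.86) and *Ddx27* (0.84) for *Ntrk3*, and *Tom1l2* (0.95), *Cpeb3* (0.93) and *Crebl2* (0.93) for *Gfra1*. *Ptgs2* encodes cyclooxygenase-2, which neuronal activity induces as it does *Bdnf*. *Ptgs2* read lower in Line 4a by the same measure, -0.48 on the log2 scale, with an unadjusted p of 0.00692 and an FDR of 0.391.

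To compare members with each other, CPM was divided by the length of the annotated exons in kilobases (kb), over all 16 mice. *Ntrk2* was highest at 37.8 ± 3.28 CPM per kb, followed by *Ntrk3* at 17.9 ± 1.104, *Gfra1* at 11.8 ± 1.43 and *Gfra2* at 7.83 ± 1.91 (SD, n = 16). *Ngfr* had 3.48 ± 1.31, *Ret* 1.97 ± 0.875, *Bdnf* 1.48 ± 0.544 and *Ntf3* 0.119 ± 0.0648 CPM per kb. The receptors of the Trk and GFRα families thus stood above the ligand genes and *Ret*. Each gene was above its lower neighbour in at least 15 of 16 mice by an exact sign-flip permutation test (adjusted p of at most 7.12e-05), other than *Ret* over *Bdnf*, which held in 11 of 16 mice with p = 0.317. In the 8 B6 mice alone *Bdnf* came above *Ret*, and neither it and *Ret* (exact p = 0.531) nor it and *Ngfr* (0.0781) were told apart.

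**Figure D4:**
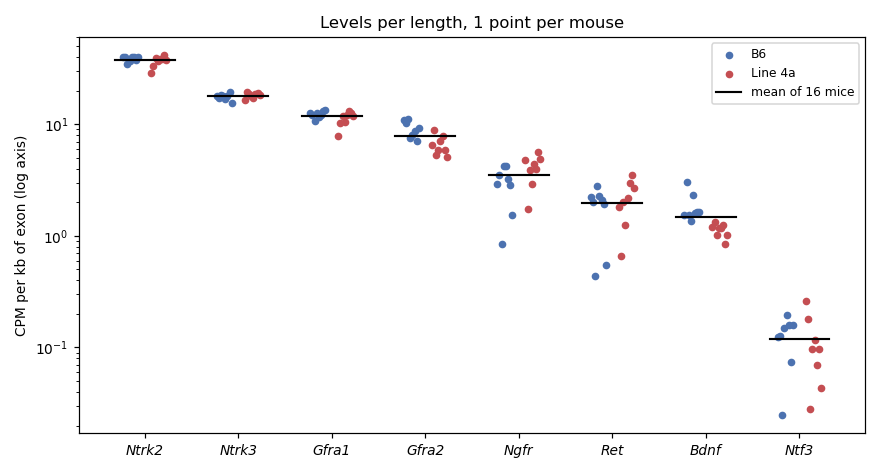
Level of each member per length, in CPM per kilobase of exon on a log axis, with 1 point per mouse and a bar at the mean of 16 mice. The means fall from 37.8 for Ntrk2 to 0.119 for Ntf3, and Ret and Ngfr have low points apart from the rest.

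The other genes of the pathways were taken from 11 lists of 98 genes, of which 93 were tested. None passed an FDR of 5%. At an unadjusted p under 0.05, 10 were lower in Line 4a, against 5.14% of all genes, and 2 higher, against 4.86%. These shares of all genes also stand beside the counts of each list below. The median log2 fold change was -0.03. With the cortical score as a covariate 3 were lower, against 1.1% of all genes, and 2 higher. Without the 2 libraries that stand apart 13 were lower and 4 higher. The shares of all genes higher beside the score, and of all genes without the 2 libraries, were not worked out.

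Among the ligands, *Ntf5*, which encodes NT-4, was too low to test. *Gdnf*, which striatal interneurons make, had 3.91 and 3.95 CPM in B6 and Line 4a mice (log2 fold change 0.02, SE 0.11). *Nrtn*, the ligand of the *Gfra2* product, had 1.79 and 2.49 CPM (0.46, SE 0.27, p = 0.0997), and *Pspn* 0.378 and 0.514 CPM (0.41, SE 0.20, p = 0.0551). These ligands did not differ at this threshold, but beside the cortical score *Nrtn* and *Pspn* were higher (0.81, SE 0.34, p = 0.0292, and 0.64, SE 0.25, p = 0.0217) and *Gdnf* lower (-0.24, SE 0.11, p = 0.0458), each with an FDR of 0.886.

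Of 9 sortilins and co-receptors, 3 were lower. *Lingo1* and *Rtn4r*, which act with p75NTR at the myelin-inhibitor receptor, had 141 and 110 CPM (-0.36, SE 0.09, p = 8.39e-04) and 24.5 and 17.9 CPM (-0.45, SE 0.15, p = 0.00842). *Sorcs3*, a sortilin relative, was the third (-0.17, SE 0.07). Neither these nor the other 6 were past the threshold beside the cortical score.

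Inside the cell the lists held little. None of the 21 adaptors of Trk and Ret, 6 interactors of p75NTR or 5 genes of proneurotrophin processing had an unadjusted p under 0.05. Beside the cortical score 1 adaptor, *Dok4*, was lower (-0.21, SE 0.10, p = 0.0488, FDR 0.886), against 1.1% of all genes. Without the 2 libraries that stand apart 2 adaptors were lower and 1 higher, and 1 processing gene was lower. The share of all genes in that fit was not worked out, so these counts are not read as a result. Of 21 kinases of the Ras-ERK and PI3K-AKT pathways, *Rps6ka1* was higher (0.16, SE 0.07) and *Pdk1* lower (-0.15, SE 0.05). *Pdk1* as a mouse symbol is pyruvate dehydrogenase kinase, not the kinase that acts on AKT. *Mef2c*, an activity-dependent transcription factor, was the 1 lower of 10 factors that act on *Bdnf* (232 and 180 CPM, -0.36, SE 0.10). *Cadps2*, which helps release BDNF from vesicles, was the 1 lower of 6 transport genes (44.0 and 31.9 CPM, -0.46, SE 0.11, p = 3.92e-04). Beside the cortical score none of these 3 lists (kinases, factors and transport) had a gene at an unadjusted p under 0.05.

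The 8 genes that BDNF is known to induce, a list written with earlier results of these data known, all had a negative log2 fold change. Their median was -0.31, and 4 were lower at an unadjusted p under 0.05, against 5.14% of all genes. The 4 were *Nptx2*, a synaptic pentraxin (-0.34, SE 0.09), *Egr1*, an immediate early transcription factor (-0.28, SE 0.13), *Dusp6*, a phosphatase of ERK (-0.26, SE 0.09), and *Vgf*, a neuropeptide precursor (-0.13, SE 0.05). The immediate early genes *Arc* (-0.43, SE 0.24), *Fos* (-0.58, SE 0.32) and *Egr2* (-0.62, SE 0.32) were more variable and were not past the threshold. Beside the cortical score 1 of the 8 was lower, *Egr2*, against 1.1% of all genes, and the median was -0.27. Neuronal activity induces these genes as well as *Bdnf* itself, and the list does not separate the 2.

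**Figure D5:**
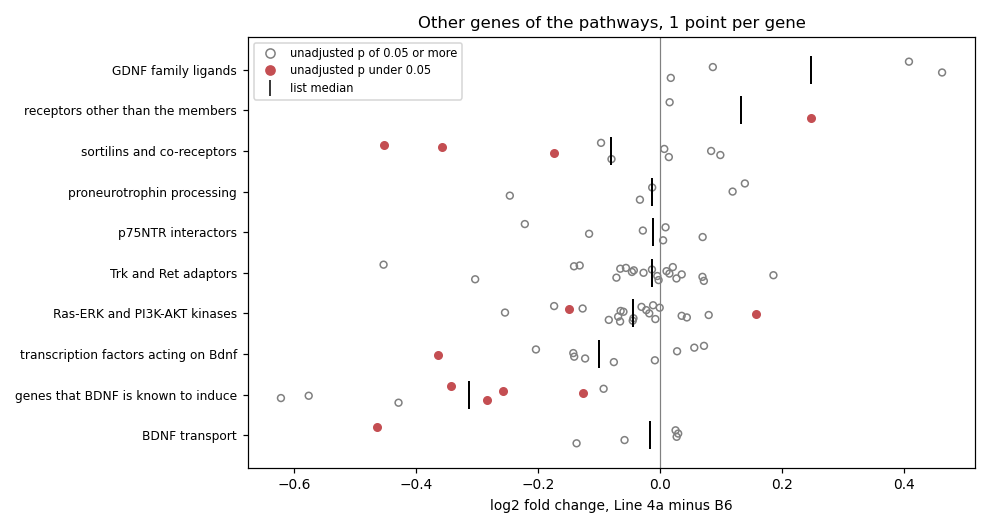
Log2 fold change (Line 4a minus B6, horizontal axis) of 92 of the 93 other pathway genes tested, by list for lists with at least 2 of them, with 1 point per gene, filled where the unadjusted p was under 0.05, and a bar at the list median. The genes that BDNF is known to induce all lie below 0, with a median of -0.31, and most other lists are centred near 0.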

How the data were processed

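RNA from striatal punches of 16 mice was sequenced by the authors with a stranded oligo-dT kit as single-end reads. Alignment to mm10 used TopHat with bowtie2 2.2.2, reads were counted with htseq-count 0.6.1p1, and the authors deposited the raw counts per gene for each lane of each mouse. Reads were counted without strand, and those with several alignments were left out. Their entries were 19.5% to 27.3% of all entries of the counting, on genes or not. The authors' deposited tables of their own comparison were not used.

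Here the 31 lane files were summed per mouse, since the 2 files of 15 mice agreed within sampling noise (chi-square per degree of freedom 0.997 to 1.05). For B6 mouse 7, 1 lane file was used. Mice were grouped by the genotype in the labels. Genes were filtered with filterByExpr, scaled by TMM and tested with edgeR 4.0.16 (quasi-likelihood, genotype alone, R 4.3.3), with Benjamini-Hochberg adjustment. The study's model also held home cage, which the labels do not give. SE is the log2 fold change divided by the root of F. The spread between mice common to the 15589 genes tested was 13.0% (biological coefficient of variation). By SD over mean, *Ngfr*, *Ret* and *Gfra2* varied more than this in both groups. So did *Bdnf* in B6 mice and *Gfra1* in Line 4a mice, and *Ntf3* is limited by its few reads. A prior count of 0.5 was added for log2 CPM. Single genes were compared by exact permutation (scipy 1.17.1), relations by 100000 permutations within genotype. DESeq2 1.42.0 was an alternative.

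Positions came from RefSeq for GRCm38.p6, matched by symbol, and exon lengths from GENCODE for mm9. Named genes were all 8 members, the pathway genes with an unadjusted p under 0.05, the first 2 markers of a list that moved with a member, and the 3 genes most like each member. A few genes that this rule names are not reported here. Other list genes named were chosen after their values were seen. The relations with marker lists were added after seeing the data. The members and lists were chosen with earlier results of these data known.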

Additional observations from a re-analysis of the deposited data

How the results depend on the processing

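Across 16 settings of normalization, filter, test, design and mice, plus leaving out each of the 16 mice in turn, *Bdnf*, *Gfra2*, *Gfra1*, *Ntrk2* and *Ntrk3* kept their direction. *Bdnf* passed an FDR of 5% with DESeq2 (-0.71, FDR 0.00846), with the likelihood ratio test (-0.71, FDR 0.0162) and with lane files as separate samples (-0.71), and *Gfra2* with DESeq2 (-0.48) and with lane files (-0.50). These settings called 2, 1 and 2 members, and 31, 20 and 1068 genes where the quasi-likelihood test called 1. *Ngfr* reversed with the cortical score (-0.032) and with score and lane pair (-0.014), and *Ret* with the score (-0.47), with both (-0.43) and in lanes 5 and 6 alone (-0.38). The number of members at an unadjusted p under 0.05 was 4 in lanes 7 and 8 alone (9.01% of all genes) and 1 with score and lane pair (1.64%). The causes were not tested. The fit with score and lane pair and the fit without the 2 libraries that stand apart, which called 7 genes, were chosen after seeing the data.

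Leaving out 1 mouse gave 0 members at an FDR of 5% each time, 2 to 3 members at an unadjusted p under 0.05, and 1 to 4 genes at an FDR of 5%. The third member was *Ngfr*, without Line 4a mouse 2 (p = 0.0320, FDR 0.396). That fit moved many genes: 114 passed an FDR of 20%, the most of any of these fits, against 3 with all mice. The share of all genes at an unadjusted p under 0.05 in these fits was not worked out. The added member is therefore not read as a result for *Ngfr*. The log2 fold change ranged from -0.76 to -0.56 for *Bdnf*, -0.55 to -0.43 for *Gfra2*, -0.16 to -0.06 for *Gfra1*, -0.10 to -0.03 for *Ntrk2*, 0.01 to 0.07 for *Ntrk3*, 0.33 to 0.58 for *Ngfr* and 0.11 to 0.39 for *Ret*. Mouse numbers are shared between genotypes in the labels, but same-numbered mice did not deviate together (correlations -0.12 to 0.36, and 1 of 8 Line 4a mice best with its own number). With a replicate block *Bdnf* was -0.67 (FDR 0.237), *Gfra2* was -0.48 and 0 genes passed an FDR of 5%. Dividing by the longest transcript gave 66.9 CPM per kb for *Ntrk2*, 28.5 for *Ntrk3*, 13.9 for *Gfra1* and 2.03 for *Bdnf*, which then came above *Ret*. *Ntf3* is limited by its depth of at most 12 reads per mouse.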
